A study of Mus musculus with 6 samples.

Results

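Long-term haematopoietic stem cells (LT-HSCs) are too rare to be recognised by shape and are isolated from bone marrow by the proteins on their surface. The transcripts described here are those of the proteins most often used for that purpose in the mouse: Slamf1 (the protein CD150), Cd48, Cd34, Flt3, Kit, Ly6a (Sca-1), Procr (EPCR) and Cd27. They were chosen by name from a list of 10 names, and 8 of these have a row among the 26776 genes of the deposited count table. The other 2 names, Cd150 and Slamf2, have no row and are alternative names of Slamf1 and Cd48. All 8 genes had enough counts to be tested.

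RNA came from cells labelled as LT-HSCs of the bone marrow of Trim47+/eGFP mice, which by that genotype name carry an eGFP reporter on one allele of Trim47. The compared groups were cells with low (eGFPlo) and with high (eGFPhi) reporter fluorescence, with 3 libraries each, and both groups carry the same reporter allele. The labels give no age, sex, treatment or number of animals, and do not say if the 3 libraries were made from different animals, so p-values speak only of the spread among these libraries, which may be technical. The sorting gate is not given in the sources used here, so it is not known which of the 8 proteins were used to select the cells. A gate acts on protein, and the values below are transcript levels.

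As background, mouse stem and progenitor cells of the marrow lack the antigens of mature lineages and carry Sca-1 and the stem cell factor receptor Kit. Among them, cells with CD150 and EPCR and without CD48, CD34 and Flt3 are enriched for long-term stem cells, while CD48, CD34 and Flt3 appear on the progenitors that follow. CD27 is found on both.

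Of the 8 transcripts, Slamf1, Procr and Kit were higher and Cd48, Flt3 and Cd34 were lower in eGFPhi. The threshold was a Benjamini-Hochberg adjusted p of 0.05 over 18081 genes in edgeR's quasi-likelihood test. Ly6a and Cd27 did not pass. Thus 3 of 8 rose, where 32.3% of all tested genes did, and 3 of 8 fell, where 31.7% did, so the number of calls is close to the background. The groups did not overlap for 8 of 8 genes, nor did they for 69.8% of all tested genes. The median log2 fold change was 0.30 over the 8 genes and 0.00 over all tested genes. In a likelihood ratio test with an assumed biological coefficient of variation of 0.2, 5 of 8 passed, against 36.6% of all genes; the measured common coefficient was 0.0941.

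**Figure D1:**
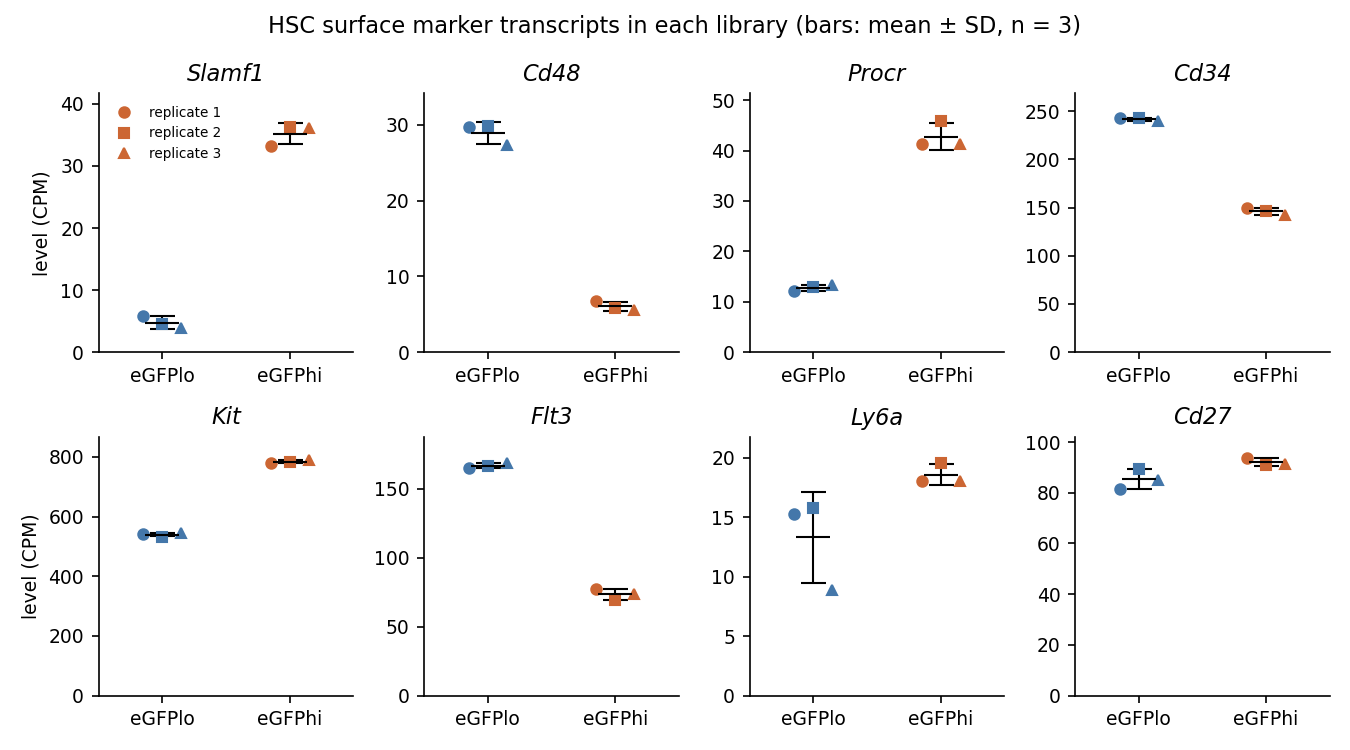
Levels of the 8 transcripts in each library, in CPM (library-scaled counts) on linear axes from 0, with replicates marked by shape and mean ± SD (n = 3) in black. The groups are far apart for Slamf1, Cd48 and Procr, and Ly6a shows a low value of 8.86 CPM in eGFPlo replicate 3.

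**Figure D2:**
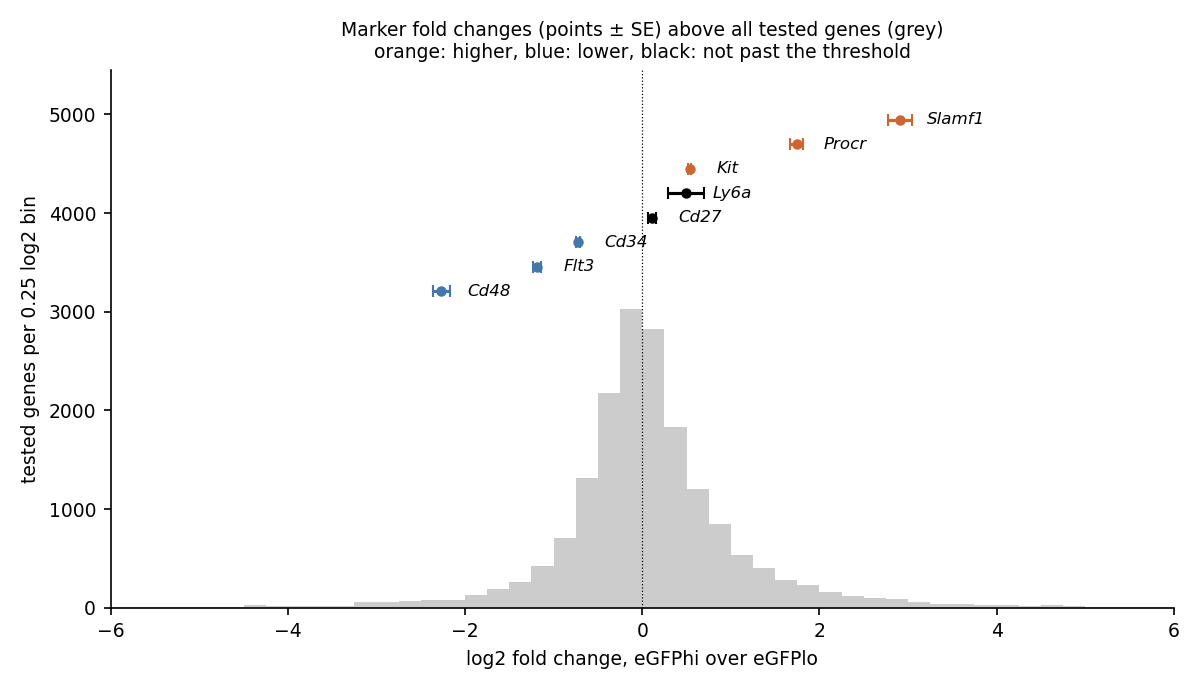
Log2 fold changes of the 8 transcripts with their standard errors, drawn above a histogram of all tested genes on the same horizontal axis; 449 genes beyond 6 log2 units in either direction are not drawn. Slamf1 at 2.91 and Cd48 at -2.27 lie in the outer parts of the distribution and Cd27 at 0.11 lies in its centre.

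Total counts were 11221070 to 26058391 per library, which puts 3 counts at 0.115 to 0.267 CPM. Levels are given as CPM, the usual depth-scaled unit, with TMM factors in the library sizes. Markers of other cells were summed to check the labelled cell type. The 10 granulocyte-monocyte progenitor markers summed to 6421 to 6544 CPM in eGFPlo and 906 to 1135 CPM in eGFPhi, and 10 of 10 were lower in eGFPhi. The 10 B cell markers summed to 3409 to 3492 and 403 to 416 CPM, again with 10 of 10 lower, and Vpreb3 and Igll1 had no count in eGFPhi. The 9 T and NK cell markers in the table summed to 61.4 to 62.8 CPM in eGFPlo and 14.8 to 17.0 CPM in eGFPhi. Of 5 tested, 3 were lower and 1 was higher in eGFPhi. The LT-HSC markers were present in both groups, at 700 to 719 CPM in eGFPlo and 1792 to 1979 CPM in eGFPhi, with 9 of 10 higher in eGFPhi.

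The surface markers of the SLAM family changed most. Slamf1 and Cd48 encode related receptors of the immunoglobulin superfamily; CD150 binds itself on neighbouring cells, and CD48 is a lipid-anchored protein that binds CD244 and CD2. Slamf1 (ENSMUSG00000015316, chromosome 1, 171767127 to 171801184, plus strand, build GRCm38) stood at 5.83, 4.61 and 3.82 CPM in eGFPlo replicates 1 to 3 and at 33.2, 36.2 and 36.2 CPM in eGFPhi replicates 1 to 3. The groups did not overlap, and the means were 4.75 ± 1.01 and 35.2 ± 1.73 CPM (SD, n = 3 each). Slamf1 was 7.54-fold higher in eGFPhi (log2 fold change 2.91, SE 0.14, edgeR adjusted p = 1.87e-06), and 520 of the tested genes rose more. The eGFPlo values rest on 66 to 69 counts each, and their counting intervals (exact Poisson, 95%) span 2.97 to 7.39 CPM.

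Cd48 (ENSMUSG00000015355, chromosome 1, 171682009 to 171705258, plus strand) moved the other way. It stood at 29.6, 29.8 and 27.3 CPM in eGFPlo and at 6.76, 5.80 and 5.60 CPM in eGFPhi. The groups did not overlap, and Cd48 was 4.82-fold lower in eGFPhi (log2 fold change -2.27, SE 0.10, adjusted p = 1.13e-06). CD48 is carried by most lymphoid and myeloid cells, and the granulocyte-monocyte progenitor and B cell sums given above fell in the same libraries; their part in the Cd48 result was not tested. In these bulk samples fewer cells of a type and less RNA per cell cannot be told apart.

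The pair was read together within each library, where the scaling cancels out. There were 0.197, 0.155 and 0.140 Slamf1 counts for each Cd48 count in eGFPlo, and 4.91, 6.25 and 6.46 in eGFPhi. Cd48 counts therefore outnumbered Slamf1 counts in each eGFPlo library and Slamf1 counts outnumbered Cd48 counts in each eGFPhi library. The log2 ratio rose by 5.17, from -2.63 ± 0.25 to 2.54 ± 0.22 (n = 3 each), a 35.98-fold change. An exact two-sided permutation test gave p = 0.1, the smallest that 3 libraries against 3 allow.

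Slamf1 and Cd48 lie in one cluster of SLAM receptor genes, with 61.9 kb between the end of Cd48 and the start of Slamf1. Of the 7 cluster genes tested, Slamf1 and Cd84 were higher in eGFPhi and Cd244a, Ly9, Slamf7, Cd48 and Slamf6 were lower. Cd84, the next gene beyond Slamf1, which encodes a receptor of platelets and leukocytes, rose 1.44-fold from 59.6 ± 1.91 to 85.9 ± 3.22 CPM (adjusted p = 3.78e-05). Slamf6, the gene after it, which encodes a receptor of lymphocytes, was 65.6-fold lower, at 20.1 ± 0.902 against 0.282 ± 0.0935 CPM. Cd244a, which encodes a receptor for CD48, was 5.19-fold lower at 27.4 ± 1.19 against 5.25 ± 0.546 CPM, and Slamf7 was 8.38-fold lower. Exons of Slamf7 share 423 bases with an annotated gene on the other strand. Genes that fell thus lay on both sides of the pair that rose.

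**Figure D3:**
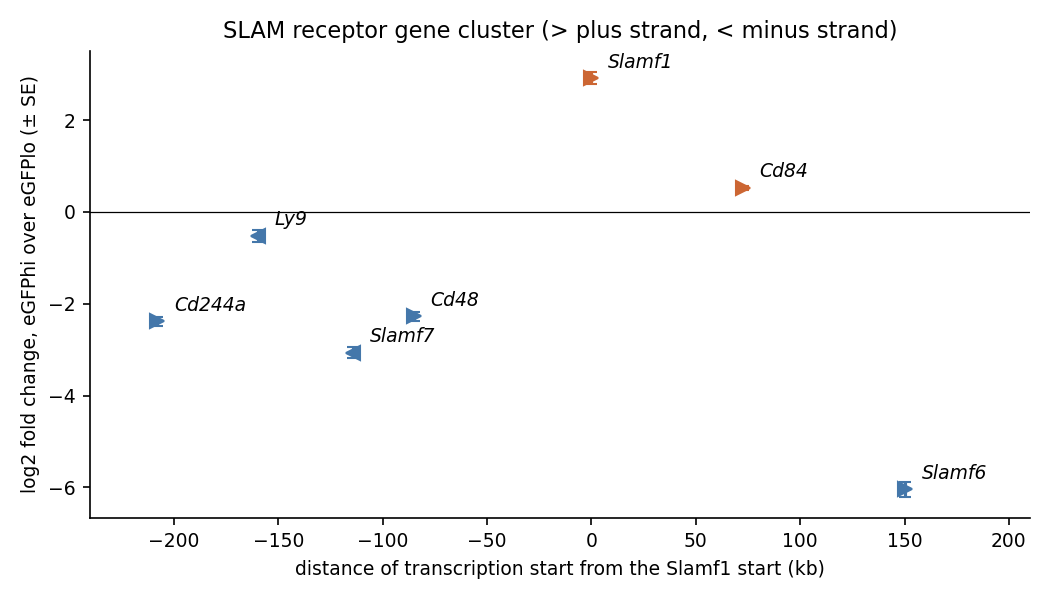
Log2 fold change (eGFPhi over eGFPlo, ± SE) of the 7 tested SLAM receptor genes against the distance of their transcription start from that of Slamf1, with arrows for the strand. Slamf1 at 2.91 and Cd84 at 0.53 are above 0 and lie next to each other; the other genes are below 0, down to -6.04 for Slamf6.

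Counting the intracellular partners as well, 2 of 11 tested genes of the SLAM list were higher and 6 lower, and their median log2 fold change was -0.37. Without eGFPhi replicate 1, 5 were higher, but the filter was then run again and left 18926 genes, so the 5 need not be among the same 11. With the assumed coefficient of variation or a minimum fold of 1.5 only 1 was higher. The lipid phosphatase gene Inpp5d, which encodes SHIP1, was 1.29-fold lower, at 283 ± 9.14 against 219 ± 8.66 CPM (adjusted p = 1.00e-04). The kinase gene Fyn and the phosphatase genes Ptpn6 and Ptpn11, whose products act below SLAM receptors, had log2 fold changes of 0.11, 0.02 and 0.08 and did not pass the threshold. Slamf8, Slamf9 and Sh2d1b1 had too few counts for the test. Slamf8 had no count in eGFPlo and 2, 35 and 31 counts in eGFPhi replicates 1 to 3. Slamf9 had 5, 16 and 14 counts and Sh2d1b1 had 6, 5 and 8 in eGFPlo replicates 1 to 3, and neither had a count in eGFPhi. Beside this list and those below, the shares over all tested genes were 32.3% higher and 31.7% lower.

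The stretches before the starts of both neighbours are shown because these genes moved in opposite directions from adjoining positions. Sequences are from RefSeq (GRCm38.p6), 5′ to 3′ on the gene's strand, and stop before the first annotated base of the gene. Capitals mark letters of a GATA core (GATA with A or T before it and A or G after it), the ETS letters CGGAAG, the RUNX letters TGTGGT or an interferon response element, searched on both strands.
Slamf1, chr1:171766882-171767126, plus strand: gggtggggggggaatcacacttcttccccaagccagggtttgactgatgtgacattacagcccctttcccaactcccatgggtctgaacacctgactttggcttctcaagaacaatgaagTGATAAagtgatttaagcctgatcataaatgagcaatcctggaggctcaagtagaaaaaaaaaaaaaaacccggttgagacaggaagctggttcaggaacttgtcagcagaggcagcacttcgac
Cd48, chr1:171681742-171681991, plus strand: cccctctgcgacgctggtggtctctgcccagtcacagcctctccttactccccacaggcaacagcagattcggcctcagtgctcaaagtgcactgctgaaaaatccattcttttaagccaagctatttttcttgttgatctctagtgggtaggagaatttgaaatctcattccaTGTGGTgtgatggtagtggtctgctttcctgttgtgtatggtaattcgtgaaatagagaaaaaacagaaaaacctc

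The Slamf1 stretch holds 1 GATA core, 130 to 125 bases before the RefSeq start, and the Cd48 stretch holds 1 RUNX match, 76 to 71 bases before it. Of 32851 promoter windows of 250 bases, 26.5% hold the GATA core and 14% the RUNX letters, so neither match is rare. An E-box (CANNTG, present in 66.2% of windows) occurs once in each, and in Cd48 it overlaps the RUNX match. A match is a string of letters and not a measured binding site.

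Procr (ENSMUSG00000027611, chromosome 2, 155751117 to 155755471, plus strand) encodes the endothelial protein C receptor, EPCR, which binds protein C and marks stem cells in the marrow. It stood at 12.1, 12.9 and 13.2 CPM in eGFPlo and at 41.3, 45.8 and 41.3 CPM in eGFPhi. The groups did not overlap, and Procr was 3.35-fold higher in eGFPhi (log2 fold change 1.75, SE 0.07, adjusted p = 1.04e-06). EPCR is also a protein of endothelium. Of 9 tested endothelial markers 5 were higher and 3 lower in eGFPhi, with a sum of 172 to 184 CPM in eGFPlo and 294 to 306 CPM in eGFPhi. The part of endothelial cells in the Procr result was not tested.

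Of 8 other tested genes of the protein C pathway, 4 were higher and 2 lower in eGFPhi. With Procr included, 5 of 9 were higher, or 3 against a minimum fold of 1.5, and the median log2 fold change was 0.49. The thrombin receptor gene F2r, whose product PAR1 is cleaved by activated protein C bound to EPCR, rose 1.75-fold from 73.2 ± 1.69 to 128 ± 1.68 CPM (adjusted p = 9.93e-07). Pros1, which encodes the cofactor protein S, rose 4.49-fold from 2.18 ± 0.533 to 9.69 ± 0.384 CPM. The thrombomodulin gene Thbd, at 9.54 ± 0.635 and 13.4 ± 0.952 CPM, rose 1.40-fold. F10, which encodes coagulation factor X, was 6.51-fold lower at 12.6 ± 0.324 against 1.92 ± 0.138 CPM. F2rl1 had no count in eGFPhi. It lay below the list median with or without a bound on its fold change, so the bound could not alter the median.

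Cd34 (ENSMUSG00000016494, chromosome 1, 194938819 to 194961279, plus strand) encodes a sialomucin of progenitor and endothelial cells, and its protein is low or absent on adult mouse long-term stem cells. The transcript was abundant in all libraries, at 243, 243 and 240 CPM in eGFPlo and 150, 147 and 143 CPM in eGFPhi. The groups did not overlap, and Cd34 was 1.65-fold lower in eGFPhi (log2 fold change -0.73, SE 0.03, adjusted p = 6.79e-07). Its exons share 148 bases with an antisense gene on the other strand. Granulocyte-monocyte progenitors carry CD34, and their summed markers fell in the same libraries as given above; their part in the result was not tested.

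Relatives of CD34 and the selectins did not share one direction. Of 7 tested genes of that list, Cd34 included, 2 were higher and 4 lower. The median log2 fold change was -0.24, in a range from -1.83 to 2.23. Only the 2 that rose are described here, and those that fell beside Cd34 are not. Podxl, which encodes the related sialomucin podocalyxin, rose 4.69-fold from 4.94 ± 0.729 to 23.4 ± 1.88 CPM (adjusted p = 4.75e-06). Selp, the gene of P-selectin, rose 1.86-fold from 27.3 ± 4.57 to 50.8 ± 2.06 CPM; its exons share bases with 2 genes on the other strand.

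Within a library, Procr counts amounted to 0.0498, 0.0532 and 0.0552 of Cd34 counts in eGFPlo and to 0.276, 0.312 and 0.289 in eGFPhi. The log2 ratio of Procr to Cd34 rose by 2.47 (-4.25 ± 0.08 to -1.78 ± 0.09, n = 3 each), a 5.55-fold change. The exact permutation p was again 0.1, with no overlap between groups.

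Flt3 (ENSMUSG00000042817, chromosome 5, 147330741 to 147400489, minus strand) encodes the receptor tyrosine kinase for Flt3 ligand and appears on multipotent and lymphoid-primed progenitors. It stood at 165, 166 and 169 CPM in eGFPlo and at 77.6, 69.0 and 73.3 CPM in eGFPhi. The groups were well apart, and Flt3 was 2.28-fold lower in eGFPhi (log2 fold change -1.19, SE 0.05, adjusted p = 7.33e-07). Flt3 is also expressed by dendritic cells, and of 9 other monocyte and dendritic cell markers 7 were lower and 2 higher, with sums without Flt3 of 289 to 307 CPM in eGFPlo and 190 to 211 CPM in eGFPhi. What these cells and the early B cell genes contributed to the fall of Flt3 was not tested.

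The starts of Cd34 and Flt3, the transcripts that fell with the highest levels per kb, are shown with the same marking. The Cd34 stretch holds 1 GATA core on the minus strand of the printed sequence. In the Flt3 stretch none of the marked letters was found, and 1 E-box lies near its far end.
Cd34, chr1:194938571-194938818, plus strand: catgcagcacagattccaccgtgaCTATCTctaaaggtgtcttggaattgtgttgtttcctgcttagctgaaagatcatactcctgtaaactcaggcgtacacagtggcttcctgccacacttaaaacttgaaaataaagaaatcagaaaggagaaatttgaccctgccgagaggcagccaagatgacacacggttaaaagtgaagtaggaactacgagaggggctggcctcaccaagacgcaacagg
Flt3, chr5:147400490-147400739, minus strand: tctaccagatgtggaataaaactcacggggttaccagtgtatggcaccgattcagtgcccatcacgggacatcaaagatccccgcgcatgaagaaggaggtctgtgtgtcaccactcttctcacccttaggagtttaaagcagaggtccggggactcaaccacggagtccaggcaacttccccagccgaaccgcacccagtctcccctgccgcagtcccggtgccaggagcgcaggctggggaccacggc

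Kit (ENSMUSG00000005672, chromosome 5, 75574916 to 75656722, plus strand) encodes the receptor tyrosine kinase for stem cell factor, which stem and early progenitor cells share. It stood at 541, 533 and 544 CPM in eGFPlo and 779, 781 and 790 CPM in eGFPhi. The replicates of a group lay close together, the groups did not overlap, and Kit was 1.45-fold higher in eGFPhi (log2 fold change 0.54, SE 0.02, adjusted p = 3.16e-07). The Kit call was lost against a minimum fold of 1.5 and when the coefficient of variation was taken as 0.2 (adjusted p = 0.06). Mast cells also carry Kit. All 7 tested mast cell and basophil markers were lower in eGFPhi. The list summed to 70.5 to 86.4 CPM in eGFPlo and 14.7 to 15.4 CPM in eGFPhi. The part of mast cells in the Kit result was not tested.

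Kit and Flt3 belong to the same class of receptors and moved in opposite directions. The genes of their ligands and signalling partners were followed as a list of 20, of which 19 were tested; 7 were higher and 6 lower, Kit and Flt3 included, and their median log2 fold change was 0.06. The median was 0.10 without eGFPhi replicate 1, 0.09 without eGFPlo replicate 2 and 0.04 without eGFPlo replicate 3. When the coefficient of variation was taken as 0.2, only Flt3l was higher and only Flt3 and Fes were lower. Flt3l, the gene of Flt3 ligand, rose 2.90-fold from 6.78 ± 0.279 to 19.8 ± 2.05 CPM (adjusted p = 1.39e-05), but 856 bases of its exons are shared with another annotated gene on the same strand. The tyrosine kinase gene Fes was 1.77-fold lower at 78.7 ± 3.06 against 44.4 ± 1.55 CPM. Kitl, the gene of stem cell factor, had 1 count over the eGFPlo libraries and 5, 12 and 10 counts in eGFPhi replicates 1 to 3, too few for the test.

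Slamf1 was also set against Flt3 in each library. There were 0.0353, 0.0278 and 0.0227 Slamf1 counts for each Flt3 count in eGFPlo and 0.428, 0.525 and 0.493 in eGFPhi. The log2 ratio rose by 4.09, from -5.15 ± 0.32 to -1.06 ± 0.15 (n = 3 each), with an exact permutation p of 0.1 and no overlap.

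**Figure D4:**
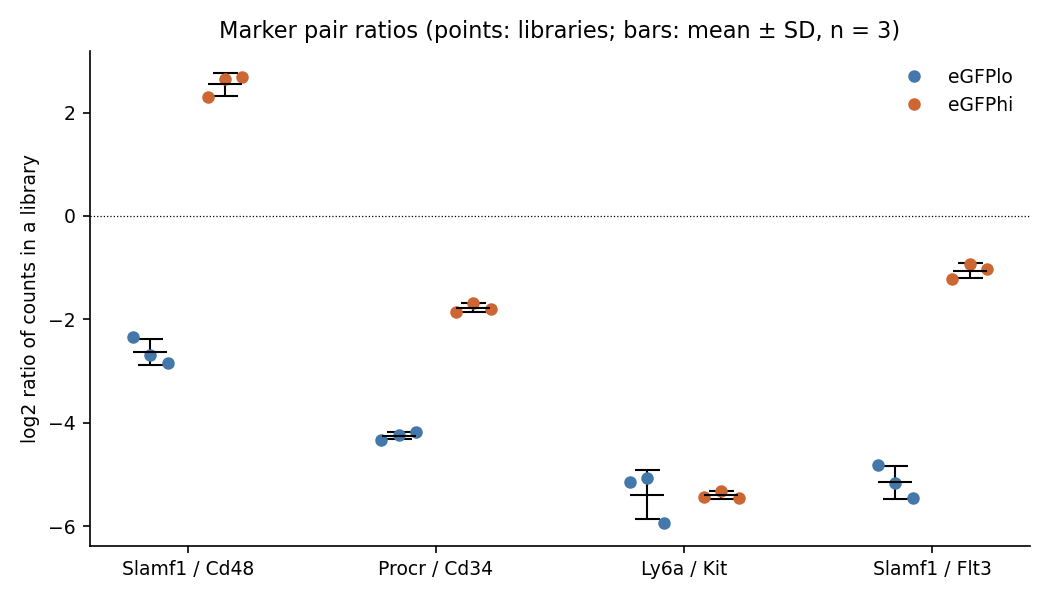
Log2 ratios of the counts of 2 marker genes within each library (points), with mean ± SD (n = 3), for 4 pairs. The ratio of Slamf1 to Cd48 crosses 0 between the groups, those of Procr to Cd34 and Slamf1 to Flt3 are higher in eGFPhi and stay below 0, and that of Ly6a to Kit overlaps between groups.

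Ly6a (ENSMUSG00000075602, chromosome 15, 74994877 to 74998031, minus strand) encodes Sca-1, the lipid-anchored antigen that defines the stem cell compartment in many mouse strains. It stood at 15.2, 15.8 and 8.86 CPM in eGFPlo and at 18.1, 19.6 and 18.0 CPM in eGFPhi. The groups did not overlap, but eGFPlo replicate 3 was lower than replicates 1 and 2 of its group. Its exact Poisson interval was 7.54 to 10.3 CPM and theirs began at 13.1 and 13.8 CPM; these intervals hold counting error only and leave out the spread between libraries. Ly6a did not pass the threshold (log2 fold change 0.50, edgeR adjusted p = 0.0623). Its 95% interval of 0.03 to 0.97 is not adjusted for the number of genes tested. Without eGFPlo replicate 3 the log2 fold change was 0.26 and passed (adjusted p = 0.0422), and without eGFPlo replicate 2 it was 0.65 and passed (adjusted p = 0.0393). The size of the Ly6a difference therefore depended on that library.

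The ratio of Ly6a to Kit, the pair that defines the compartment, was 0.0282, 0.0296 and 0.0163 in eGFPlo and 0.0232, 0.0251 and 0.0228 in eGFPhi. The values overlapped (log2 difference -0.01, exact permutation p = 1, n = 3 each). The log2 difference was -0.29 without eGFPlo replicate 3 and 0.14 without eGFPlo replicate 2.

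Of 5 tested genes of the Ly6 cluster, 0 were higher and 4 were lower, and the median log2 fold change was -2.52; the fifth was Ly6a. The count of 0 became 1 where Ly6a was called higher with limma-voom, with a replicate block and without eGFPlo replicate 2 or 3. Ly6c2, an antigen gene of monocytes, was 14.6-fold lower at 46.0 ± 5.06 against 3.14 ± 0.364 CPM (adjusted p = 3.11e-07). Ly6c1 was 19.6-fold lower at 6.97 ± 1.40 against 0.295 ± 0.256 CPM, with no count in eGFPhi replicate 1. Ly6d, an antigen gene of B cell progenitors, was 5.73-fold lower, and Ly6e, which encodes a broadly expressed member, was 1.37-fold lower at 170 ± 10.8 against 125 ± 14.4 CPM. Ly6 genes resemble each other in sequence, and how reads shared between them were counted is not given in the sources used here.

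Cd27 (ENSMUSG00000030336, chromosome 6, 125232622 to 125237010, minus strand) encodes a receptor of the tumour necrosis factor receptor superfamily found on stem cells, progenitors and lymphocytes. It was the least changed of the 8, at 81.6, 89.5 and 84.9 CPM in eGFPlo and 93.8, 91.1 and 91.4 CPM in eGFPhi. The eGFPhi values were above the eGFPlo values by a narrow margin. The difference did not pass (log2 fold change 0.11, edgeR adjusted p = 0.0523). Its 95% interval of 0.01 to 0.21 is not adjusted for the number of genes tested. On the linear scale that interval is 1.01-fold to 1.15-fold. Without eGFPlo replicate 2, the highest of its group, Cd27 passed at a log2 fold change of 0.14 (adjusted p = 0.02). Its exons share 129 bases with the microRNA gene Mir8113 on the same strand.

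Among ligands, relatives and effectors of CD27, with Cd27 itself, 2 of 11 tested genes were higher and 3 lower. Over all tested genes, 32.3% were higher and 31.7% lower. The median log2 fold change of the list was 0.09. The number called higher ranged from 1 to 4 over the alternatives, and was 1 without eGFPlo replicate 1, without eGFPlo replicate 3 or without eGFPhi replicate 2. The number called lower was 1 with a coefficient of variation of 0.2 and 0 with a minimum fold of 1.5. The median was 0.02 without eGFPhi replicate 1 and 0.04 without eGFPlo replicate 3. Tnfrsf13b, the gene of the B cell receptor TACI, was 1.61-fold lower at 39.2 ± 1.20 against 24.1 ± 1.90 CPM (adjusted p = 9.54e-05). The adaptor gene Traf5, whose product binds CD27, rose 1.85-fold from 6.85 ± 0.999 to 12.8 ± 0.207 CPM, with exon bases shared with other annotated genes on both strands. Siva1, whose product binds the tail of CD27, was 1.32-fold lower at 35.97 ± 2.42 against 27.1 ± 1.28 CPM.

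To order the 8 transcripts against each other, CPM were divided by the length of the merged annotated exons, in CPM per kb. The order depends on this length, since which annotated transcripts were expressed was not examined. In eGFPlo the order was Kit at 60.5 ± 0.644, Cd27 at 36.6 ± 1.71, Cd34 at 33.2 ± 0.237, Flt3 at 27.0 ± 0.290, Cd48 at 24.3 ± 1.19, Ly6a at 11.0 ± 3.20, Procr at 6.28 ± 0.295 and Slamf1 at 0.772 ± 0.164 CPM per kb. No neighbours in this order overlapped over the 3 libraries. In eGFPhi the order was Kit at 87.9 ± 0.618, Cd27 at 39.6 ± 0.639, Procr at 21.1 ± 1.30, Cd34 at 20.1 ± 0.479, Ly6a at 15.4 ± 0.741, Flt3 at 11.9 ± 0.700, Slamf1 at 5.72 ± 0.282 and Cd48 at 5.09 ± 0.523 CPM per kb. There, Procr and Cd34 overlapped (20.3 to 22.6 and 19.6 to 20.5), and so did Slamf1 and Cd48 (5.39 to 5.89 and 4.71 to 5.69). Procr moved from the seventh to the third place, Cd48 from the fifth to the last, and Kit and Cd27 led both orders.

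Surface antigens outside the 8 were read from lists of markers. Of 24 other HSC surface markers, all of them tested, 19 were higher and 3 lower in eGFPhi, and the median log2 fold change was 0.84. The angiopoietin receptor gene Tek rose 3.81-fold from 16.6 ± 0.722 to 63.1 ± 0.618 CPM (adjusted p = 1.72e-07). Eng, the gene of endoglin, rose 2.35-fold and the adhesion molecule gene Esam 3.61-fold, from 11.9 ± 0.599 to 43.1 ± 2.49 CPM. Thy1, Itga2 and Cxcr4 went down, by 2.80-fold, 1.98-fold and 1.89-fold. The 10 megakaryocyte markers summed to 170 to 177 CPM in eGFPlo and 531 to 545 CPM in eGFPhi; their part in the list was not tested.

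Of 15 surface markers used to gate progenitors, all tested, 13 were lower and 1 higher in eGFPhi, and the median log2 fold change was -1.22. The interleukin receptor gene Il7r, which marks lymphoid progenitors, was 25.3-fold lower at 19.5 ± 1.25 against 0.729 ± 0.236 CPM (adjusted p = 8.53e-07). Fcgr3, an Fc receptor gene that marks granulocyte-monocyte progenitors, was 9.08-fold lower at 33.0 ± 3.19 against 3.74 ± 0.766 CPM. The member that rose was Cd38, named after its values were seen, at 1.66 ± 0.477 against 7.25 ± 0.763 CPM (4.38-fold, adjusted p = 7.29e-05). Its place in this list was not checked against gates used in the mouse, so its rise is not read as that of a progenitor marker.

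Among lineage antigens, the targets of the antibody cocktails that remove mature cells, 6 of 9 tested genes were lower and 1 higher, and the median log2 fold change was -2.74. The median ranged from -3.15 to -0.38 over the 16 alternatives, with -0.38 from log2 of FPKM plus 1. It was -1.88 without eGFPhi replicate 2, -2.10 without eGFPhi replicate 3 and -3.15 without eGFPhi replicate 1. The single rise, of Klrb1c, was lost without eGFPlo replicate 3 or eGFPhi replicate 2, with DESeq2, with a coefficient of variation of 0.2 and with a minimum fold of 1.5. Without eGFPlo replicate 2, 2 were called higher. The myeloid integrin gene Itgam was 8.95-fold lower at 54.2 ± 4.08 against 6.02 ± 0.563 CPM (adjusted p = 2.52e-07), with 3450 exon bases shared with another annotated gene on the same strand. Cd3e, Cd3d, Cd3g, Cd8a and Ly6g had no count in eGFPhi and were not tested. Ptprc, the gene of the pan-leukocyte antigen CD45, stood at 353 ± 22.0 and 380 ± 1.54 CPM and did not pass (adjusted p = 0.0598).

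**Figure D5:**
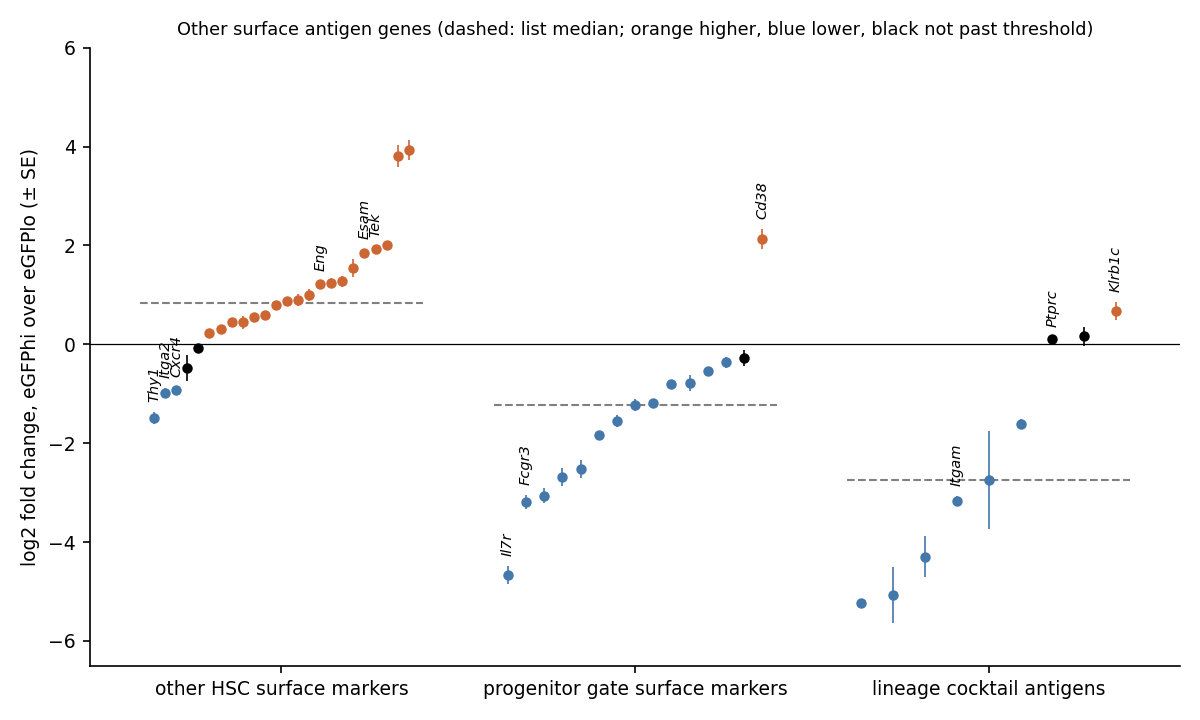
Log2 fold changes (eGFPhi over eGFPlo, ± SE) of the tested genes of 3 lists of surface antigens, in ascending order within a list, with the list median dashed (0.84, -1.22 and -2.74) and names for some of the genes. Most other HSC surface markers lie above 0 and most progenitor and lineage antigens lie below it.

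The genes whose profile over the 6 libraries was nearest to each of the 8 were found by the root mean square difference of centred log2 CPM, among 12617 genes with a mean of at least 1 CPM. Nearest to Slamf1 were Npas2, Mtss2 and Jmjd7 (differences of 0.07 to 0.12), to Procr Hbegf, Hacd4 and Med12l, and to Kit Cntln, Prkar2b and Wwc2. Nearest to Cd48 were Ighv4-1, Cplx2 and Fam241a, to Cd34 Hmgb1-ps1, Cdc25a and Irf2bp2, to Flt3 Cd53, H2ac12 and Hspa1a, and to Cd27 Zfp710, Dennd1a and Esr1. With 2 groups this measure mainly finds genes with the same fold change. By Pearson correlation 2 of these 24 names were again among the nearest 3.

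For Ly6a the nearest genes were Pigk, Ing5 and Fzd5. Their values are given as a description, since genes chosen for this likeness share its low library by construction. Pigk stood at 64.0, 68.8 and 37.7 CPM in eGFPlo and at 75.2, 78.6 and 75.1 CPM in eGFPhi. Ing5 stood at 41.0, 39.0 and 23.0 CPM in eGFPlo, and Fzd5 at 16.1, 17.4 and 10.7 CPM.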

How the data were processed

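Counts per gene and library and FPKM values were taken from the table the authors deposited, per the file headers; the counts are whole numbers and were treated as raw. The submitters' processing notes name CASAVA 1.8, HISAT2, StringTie and edgeR and the builds GRCm38 and hg38, with no role for each. The counting tool, the strand option and the treatment of shared reads were not given in the sources used here. FPKM values deposited by the authors entered a single alternative. Of 26776 genes, 26508 had the coordinates of GENCODE M21, which gave positions, exon overlaps and merged exon lengths.

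Counts were analysed with edgeR 4.0.16 in R 4.3.3: filterByExpr (minimum count 10, total 15) left 18081 genes and 99.7 to 99.9% of counts, then TMM factors and the quasi-likelihood test on group alone. SE is the log2 fold change divided by the square root of F. The 8 genes, the lists and the tests were chosen with earlier results of these data known, so no p was adjusted within a list. Genes of a list were named by smallest p among those called, at most 4, and some of these are not reported here; Ly9, Cd84, Inpp5d, Fyn, Ptpn6, Ptpn11, Thbd, F2rl1, Kitl, Thy1, Itga2, Cxcr4, Cd38, Klrb1c and Ptprc were named after their values were seen. The 3 nearest profiles of each of the 8 were also named, as were Slamf8, Slamf9 and Sh2d1b1, which were not tested. Promoters of 7 of the 8 genes were matched in RefSeq (Ly6a was not). The fit was tried on simulated counts in which only a small share of genes differed. That is unlike these data, so the simulation does not test the fit for them. Other settings tried were DESeq2 1.42.0, limma-voom (limma 3.58.1), RLE or upper-quartile factors, a filter of 5 CPM in 3 libraries or none, a block for the replicate number, an assumed coefficient of variation of 0.2, a minimum fold of 1.5, limma on log2(FPKM + 1), and the omission of each library in turn.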

Additional observations from a re-analysis of the deposited data

How the results depend on the processing

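Slamf1, Procr, Cd48, Flt3 and Cd34 kept their direction and passed the threshold under all 16 alternatives; Slamf1 ranged from 1.91 (log2 of FPKM plus 1) to 3.07 and Cd48 from -2.33 to -1.96. Kit kept its direction and passed under 14, failing with an assumed coefficient of variation of 0.2 and with a minimum fold of 1.5. Ly6a passed under 4 (limma-voom, the replicate block, and without eGFPlo replicate 2 or 3) and Cd27 under 5 (upper-quartile factors, no filter, 5 CPM in 3 libraries, log2 of FPKM plus 1, and without eGFPlo replicate 2), always as higher; adjusted p ranged from 0.0329 to 0.913 for Ly6a and from 0.02 to 1 for Cd27, and the cause was not tested. The number of the 8 genes called higher ranged from 3 to 5 when 1 library was left out. The filter was run again for each omission, so the tested genes of a list can differ from those of the main fit. Over all genes 5840 were higher and 5731 lower; with the assumed coefficient 3637 and 2982, and with the minimum fold 2528 and 1984, since both ask for larger changes. The replicate block called 5551 genes higher and 5414 lower; Ly6a was 0.52 with it (adjusted p = 0.0451) and no other of the 8 calls changed. The replicate numbers are not said to pair libraries, and no library correlated best with its own number (r = -0.0133, 0.000555 and -0.0108). For list medians, log2 of FPKM plus 1 shrank those with low members, to -0.38 for lineage antigens and -0.50 for progenitor markers. The median of all genes lay between -0.02 and 0.03 under all settings. Depth limits the low values most: 66 to 69 Slamf1 reads in eGFPlo and 76 to 151 Cd48 reads in eGFPhi. With 3 libraries a group no test for outlying libraries was run.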
